A study of Mus musculus with 12 samples.

Results

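Many C-type lectins and Siglecs are sugar-reading receptors of myeloid cells, endothelium or lymphocytes. In the deposited table of GFP(+) liver cells, 31 of 16971 listed genes were protein-coding and had a name that began with Clec or Siglec, or with Cd209 followed by a letter from a to e, once Clec4f and Clec4g were left out. They were 22 Clec genes, 4 Cd209 genes and 5 Siglec genes. For 27 of them the libraries together held 10 or more normalized counts, and the other 4 (Cd209d, Cd209e, Clec2l and Clec4a4) are given only as levels. Of the 27, Clec3b, Clec9a, Clec11a and Siglecg reached that sum only through day 0, Clec2g and Cd209a only through BDL day 14, and Cd209b only with all 3 groups, so the counts below describe these genes and support nothing.

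The cells came from mice of the genotype Prom1CreERT2-nLacZ/+;Rosa26Lsl-GFP/+ on a C57BL/6 background (C57BL/6N for the Prom1 allele and C57BL/6J for the GFP allele), in which tamoxifen turns on GFP for good in any cell that expresses Prom1 at that time and in its progeny. All groups carried both alleles and received tamoxifen as adults at 6 weeks of age, 7 days before the operation. Day 0 was a sham group, and the other mice underwent bile duct ligation (BDL), which blocks the outflow of bile, and were collected on day 3 or day 14. No sham library at day 3 or day 14 is among the labels. Ligation and the days since operation and tamoxifen therefore cannot be told apart. GFP(+) cells were sorted from the nonparenchymal fraction with a gate set on wild-type livers and with no second marker. The mice behind the means were 1 male and 2 females in the day 0 group, 2 males and 1 female in the BDL day 3 group, and 3 males and 1 female in the BDL day 14 group, so the sexes were not balanced between groups, and the sex of a library is not in the labels. The deposited values were the authors' means of each group, from 3 day 0, 3 BDL day 3 and 4 BDL day 14 libraries, so a mean has no SD of its own here and no test on library values was run; the authors' own p-values were not used.

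C-type lectin receptors share a fold that in many members binds sugars with the help of calcium. The activating ones signal through the kinase Syk, either by pairing with the adaptors FcR gamma chain and DAP12 or by a short motif of their own, while the inhibitory ones recruit phosphatases. Siglecs bind sialic acid, and most of those on leukocytes are inhibitory. In the liver the resident macrophages (Kupffer cells), the sinusoidal endothelium, dendritic cells and incoming monocytes each carry their own set of these receptors.

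The labelled cell type was progenitor cells and progeny, and its markers other than Spp1 were listed at few normalized counts. Where 3 means are given in a row, they run in the order day 0, BDL day 3, BDL day 14. Prom1 had means of 6.66, 0.956 and 1.76 normalized counts, and the bile duct keratin Krt19 had 21.5, 12.7 and 14.3. The macrophage receptor Csf1r had 1360, 2140 and 1230. Summed over all genes, the group means came to 922733, 843750 and 735604 normalized counts, and reads per library are unknown.

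For each gene the table also gives the highest library, unnamed, and the geometric mean over all libraries. The gap between the geometric mean and the group means gave an approximate SD between libraries on the log2 scale, with 7 degrees of freedom, and from it the standard error (SE) printed after each log2 ratio. A mean no more than 4 times the smallest one listed for its group was read as the floor (0.512, 0.292 and 0.244 normalized counts for the 3 groups), and a fold against the floor is a bound. Below, "higher" and "lower" in a count mean a ratio of means past 1.5-fold.

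The lectin genes sit in a few blocks of the mouse genome (mm10). On chromosome 6, between positions 122921848 and 123289870, lie 8 of them, from Clec4a1 to Clec4e, and between 128887588 and 129452000 lie 7 more, from Clec2i to Clec1a. On chromosome 7, Siglecf, Siglecg, Siglece and Clec11a lie between 43351341 and 44306902, and on chromosome 8 the 4 Cd209 genes lie between 3743397 and 3926844. Neighbours in a block did not share 1 pattern: in the first block, Clec4n had its highest mean at BDL day 3, the adjacent Clec4d had its highest at BDL day 14, and Clec4a1 and Clec4a3 each had 3 group means within 1.5-fold of one another.

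For 5 of the 27 genes, the group means, the highest library and the geometric mean left no room for the libraries of a pair of groups to overlap. These were Clec1b, Clec2d, Clec3b, Clec5a and Siglece. Counted by comparison, they were 2 at BDL day 3 and 3 at BDL day 14 against day 0, and 2 between the BDL groups. Of all genes tested, 5.94%, 6.70% and 3.44% had no overlap in the same comparisons. RefSeq's promoter table (GRCm38.p6) matched 25 of the 31 genes, Clec3b not among them. The 250 bases before the start of the other 4 of these 5 genes are printed 5′ to 3′. Capitals mark GAGGAA, a core read by the myeloid factor PU.1, which on the opposite strand reads TTCCTC.

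Clec5a, chr6:40585806-40586055, minus strand: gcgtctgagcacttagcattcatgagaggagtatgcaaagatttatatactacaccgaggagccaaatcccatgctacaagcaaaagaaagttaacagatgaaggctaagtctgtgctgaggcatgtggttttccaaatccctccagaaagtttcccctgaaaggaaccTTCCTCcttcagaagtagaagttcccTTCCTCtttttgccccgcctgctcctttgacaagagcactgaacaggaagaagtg
Siglece, chr7:43660162-43660411, minus strand: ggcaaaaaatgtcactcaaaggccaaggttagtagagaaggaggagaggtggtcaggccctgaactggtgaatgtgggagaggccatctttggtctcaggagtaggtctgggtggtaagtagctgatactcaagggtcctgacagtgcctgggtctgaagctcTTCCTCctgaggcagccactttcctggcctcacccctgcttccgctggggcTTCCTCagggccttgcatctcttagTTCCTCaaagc
Clec2d, chr6:129180365-129180614, plus strand: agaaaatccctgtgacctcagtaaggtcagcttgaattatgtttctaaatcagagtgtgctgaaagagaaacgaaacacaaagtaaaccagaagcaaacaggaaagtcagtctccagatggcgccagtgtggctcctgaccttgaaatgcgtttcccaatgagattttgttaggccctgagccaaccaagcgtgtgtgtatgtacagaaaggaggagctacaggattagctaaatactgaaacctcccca
Clec1b, chr6:129397047-129397296, plus strand: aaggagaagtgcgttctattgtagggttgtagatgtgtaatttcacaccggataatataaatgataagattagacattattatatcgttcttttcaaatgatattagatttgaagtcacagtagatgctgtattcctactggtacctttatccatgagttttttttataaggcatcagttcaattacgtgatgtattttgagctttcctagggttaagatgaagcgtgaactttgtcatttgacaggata

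Clec5a held 2 such cores, Siglece held 3, and Clec2d and Clec1b held 0 in these windows. On either strand, the core was in the windows of 15 of the 25 matched genes (60.0%), against 25.9% of the 27025 genes in the table. The AP-1 site TGACTCA was found for 1 gene, Clec2g (4.00% of the 25, against 5.16% of all), and the E-box CACGTG for 1, Siglech (4.00% against 6.86%). A match is a run of letters and says nothing of binding.

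**Figure D1:**
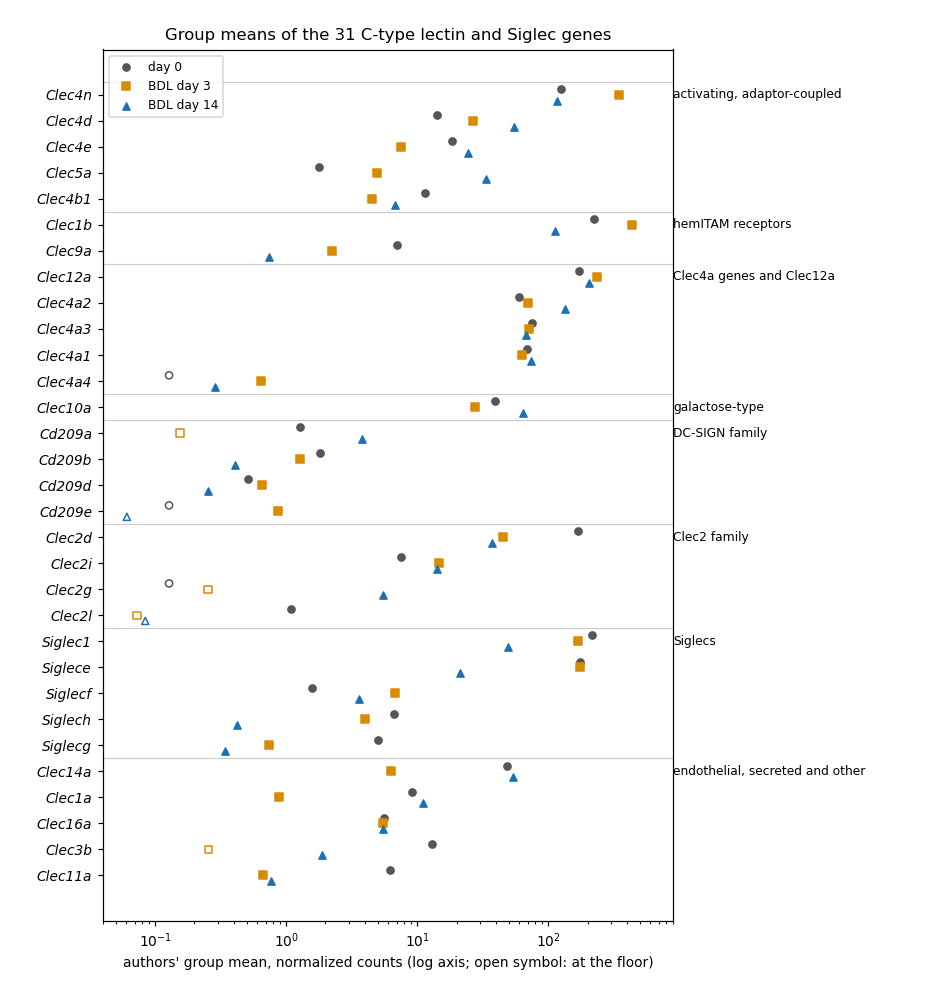
Authors' group means in normalized counts (log axis) of the 31 genes, grouped by role, for day 0 (circles), BDL day 3 (squares) and BDL day 14 (triangles), with open symbols at the floor. The means span from 0.061 (Cd209e, BDL day 14) to 440 (Clec1b, BDL day 3), and Siglec1 and Siglece had their lowest mean at BDL day 14 while Clec5a and Clec4d had their highest there.

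At BDL day 3, 7 of the 27 genes were higher than at day 0 and 11 were lower, against backgrounds of 19.2% and 29.2% of the 12889 genes tested. Means at the floor entered these counts as listed, and the 7 include Clec2g, whose means were at the floor in both groups. With the added demand that the log2 ratio exceed 2 SE, 4 were higher (Clec1b, Clec2i, Clec4n and Clec5a; background 11.4%) and 6 lower (Clec1a, Clec2d, Clec3b, Clec4e, Clec11a and Clec14a; background 15.0%). A ratio to a mean at the floor has no usable SE, and over the 24 genes with neither mean at the floor the numbers were 4 (background 11.3%) and 5, without Clec3b (background 13.4%). The libraries could not overlap for 2, Clec2d and Clec3b, against 5.94% of all genes in either direction. The median log2 ratio of the 27 was -0.34, or -0.51 with means under the floor set to it, and that of all genes was -0.02.

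At BDL day 14, 8 genes were higher than at day 0 (background 21.2%) and 11 lower (background 28.8%). Past 2 SE as well, 5 were higher (Clec2g, Clec2i, Clec4a2, Clec4d and Clec5a; background 13.2%) and 10 lower (Cd209b, Clec1b, Clec2d, Clec3b, Clec9a, Clec11a, Siglec1, Siglece, Siglecg and Siglech; background 16.8%). Clec2g was at the floor at day 0, and over the other 26 genes the numbers were 4 (background 12.9%) and 10 (background 15.7%). The libraries could not overlap for 3, Clec2d, Clec5a and Siglece, against 6.70% of all genes. The median of the 27 was -0.03 and that of all genes -0.04. Both comparisons use the same day 0 libraries.

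From BDL day 3 to BDL day 14, 10 genes were higher (background 21.2%) and 9 lower (background 19.7%). Past 2 SE, 10 were higher (background 11.3%) and 6 lower (background 10.6%), the 6 being Cd209b, Clec1b, Clec4n, Siglec1, Siglece and Siglech. The 10 were Cd209a, Clec2g and Clec3b, which were at the floor at BDL day 3, and Clec1a, Clec4a2, Clec4d, Clec4e, Clec5a, Clec10a and Clec14a. Over the 24 genes with neither mean at the floor the numbers were 7 (background 10.4%) and 6 (background 10.2%). Without their highest library, Clec4a2 (0.56) and Clec4d (0.43) were under 1.5-fold in this comparison. The libraries could not overlap for 2, Clec1b and Siglece, against 3.44% of all genes. The median was 0.01 for the 27 and 0.00 for all genes.

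**Figure D2:**
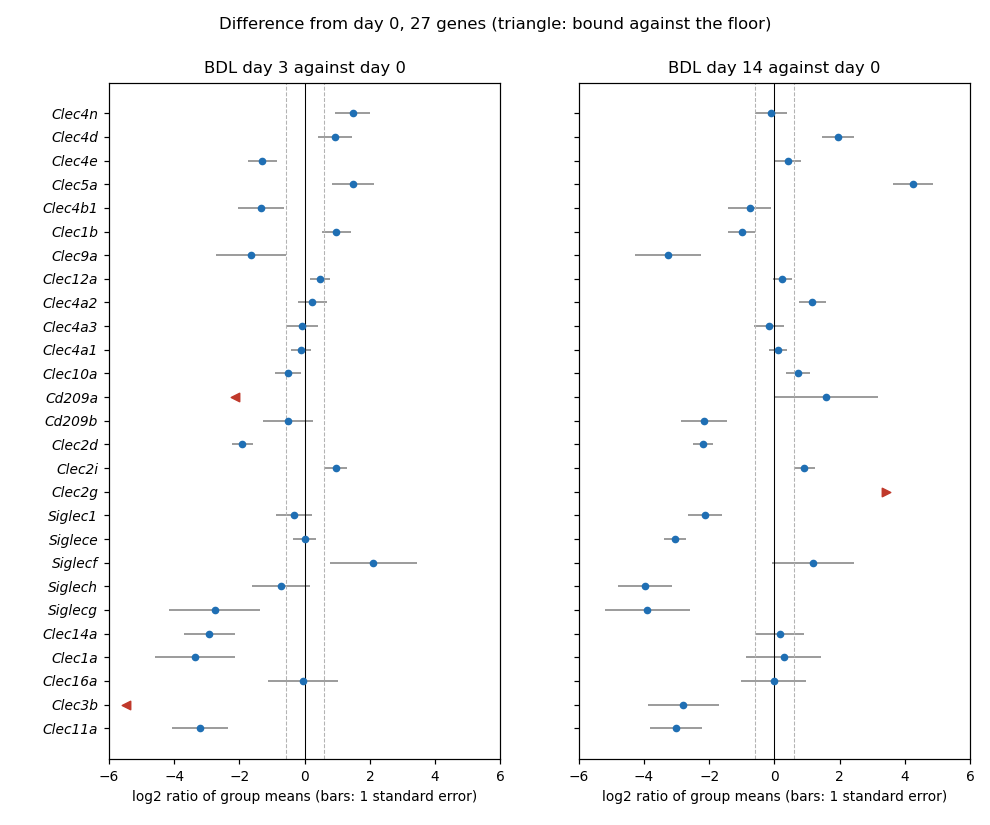
Log2 ratio of the group means of the 27 tested genes at BDL day 3 (left) and BDL day 14 (right) against day 0, with bars of 1 standard error, dashed lines at 1.5-fold and triangles for bounds against the floor. Clec5a lies at 4.25 on the right, the highest ratio that is no bound, and Siglech at -3.97 is the lowest there.

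The activating receptors that pair with an adaptor moved in different directions. Clec4n encodes Dectin-2, a receptor for fungal mannans, and had means of 125, 346 and 117 normalized counts, with a highest library of 402. It was thus 2.77-fold higher at BDL day 3 (log2 ratio 1.47, SE 0.53), and its day 0 and BDL day 14 means differed by a log2 ratio of -0.10 (SE 0.49). Per kilobase of exon it was the most abundant of the 31 genes at BDL day 3, with 34.9% of their summed level.

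Clec5a, which encodes the DAP12-coupled receptor MDL-1 of monocytes and neutrophils, had means of 1.78, 4.95 and 33.8 normalized counts. The BDL day 14 mean was 19.0-fold the day 0 mean (log2 ratio 4.25, SE 0.61). The highest library, 56.6, was in the BDL day 14 group and held 41.9% of its sum, and the mean of the other BDL day 14 libraries was 26.2.

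Clec4d and Clec4e encode MCL and Mincle, partner receptors for mycobacterial glycolipids whose genes lie side by side. Clec4d had means of 14.2, 26.8 and 55.1 normalized counts, a log2 ratio of 1.96 (SE 0.49) at BDL day 14 against day 0. One BDL day 14 library, at 112, held 50.8% of that group's sum, and without it the mean was 36.1 and the ratio 1.35. Clec4e had means of 18.4, 7.49 and 24.4, a log2 ratio of -1.30 (SE 0.43) at BDL day 3 and 0.41 (SE 0.41) at BDL day 14 against day 0. At BDL day 3 the Clec4d log2 ratio was 0.92 with an SE of 0.52, under 2 SE, so that only the Clec4e difference passed there.

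Clec4b1, which encodes DCAR, had means of 11.4, 4.5 and 6.75 normalized counts, and neither difference from day 0 exceeded 2 SE. It shared 19.0% of its 31-base words with other genes, mostly with Clec4a2, so its counts are uncertain.

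Clec1b and Clec9a carry the short Syk-binding motif themselves. Clec1b encodes CLEC-2, the podoplanin receptor of platelets and mouse Kupffer cells, and had means of 224, 440 and 112 normalized counts. Against day 0, the log2 ratio was 0.97 (SE 0.44) in the BDL day 3 group and -1.0 (SE 0.41) in the BDL day 14 group, and the BDL day 3 libraries could not overlap those of BDL day 14, where the mean was 3.93-fold lower.

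The 9 Kupffer cell markers (Clec4f and Vsig4 among them) summed to 11193, 24422 and 2016 normalized counts. Of these, 8 of 9 were higher at BDL day 3 than at day 0 (background 19.2%), and Clec4f (4610 and 6890) was just under 1.5-fold. At BDL day 14, 9 of 9 were lower than at day 0 (background 28.8%). Much of the rise in the sum at BDL day 3 came from Cd5l (2620 to 7440) and Marco (694 to 3920). The platelet markers summed to 45.1, 87.2 and 234, nearly all of it from Pf4. Against day 0, 1 of the 3 tested was higher and 2 lower at BDL day 3 (backgrounds 19.2% and 29.2%). At BDL day 14, 2 were higher and 1 lower (backgrounds 21.2% and 28.8%). Itga2b had 4.26, 1.46 and 11.4, and Gp1bb was at the floor in all 3 groups. The part of Kupffer cells or platelets in the Clec1b values was not tested. In these bulk libraries, fewer cells of a type and less RNA per cell cannot be told apart.

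Clec9a, the receptor of cross-presenting dendritic cells for the actin of dead cells, had means of 7.03, 2.25 and 0.738 normalized counts. A single day 0 library, at 14.3, held 67.8% of its group's sum, and the day 0 mean without it was 3.40. The BDL day 14 mean had a log2 ratio of -3.25 (SE 1.01) against day 0, or -2.20 without that library, and the BDL day 3 ratio went from -1.64 to -0.59. Clec9a and Clec1b overlap by 474 bases on the same strand.

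Clec12a and the Clec4a genes differed less between groups. Clec12a, an inhibitory receptor for uric acid crystals, had means of 172, 237 and 204 normalized counts, and no pair of groups was 1.5-fold apart. Clec4a3 had 75.6, 71.5 and 67.5, and Clec4a1 had 68.6, 63.6 and 73.8. These 2 had the flattest profiles of the genes with a mean of at least 10, with ratios to day 0 of 1.12-fold at most.

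Clec4a2, which encodes the inhibitory receptor DCIR, stood apart from them, with means of 59.7, 70.5 and 134 normalized counts. The log2 ratio at BDL day 14 against day 0 was 1.17 (SE 0.41). The highest library, 225, was in the BDL day 14 group and held 42.0% of its sum, and the mean without it was 104. Clec4a2 shared 10.3% of its 31-base words with other genes. Clec4a4 was at 0.128, 0.639 and 0.285.

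The 10 markers of recruited macrophages, such as Ccr2, Cx3cr1 and Chil3, summed to 726, 837 and 4541 normalized counts, or 267, 662 and 3749 without Spp1, which bile duct cells also express. At BDL day 14, 9 of 10 were higher than at day 0 and the monocyte marker Ly6c2 was lower (21.9, 8.19 and 6.69), against backgrounds of 21.2% and 28.8%. At BDL day 3, 4 were higher and 3 lower (backgrounds 19.2% and 29.2%). Pan-macrophage markers summed to 4820, 8699 and 13761, but to 2540, 4139 and 2561 without Lyz2. Clec5a, Clec4d and Clec4a2 had their highest means at BDL day 14, as the recruited macrophage sum did, and the part of these cells in their values was not tested.

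The Siglecs were lower at BDL day 14, except Siglecf. Siglec1 encodes sialoadhesin (CD169), an adhesion receptor of resident macrophages, and had means of 215, 170 and 49.4 normalized counts. The log2 ratios to day 0 were -0.34 (SE 0.55) and -2.12 (SE 0.52), in the same order.

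Siglece, an inhibitory Siglec of neutrophils and macrophages, had means of 176, 176 and 21.2 normalized counts. Its BDL day 14 mean was 8.30-fold below the other 2 (log2 ratio -3.05, SE 0.33), and the libraries of BDL day 14 could not overlap those of either group. Between day 0 and BDL day 3 the log2 ratio was 0.00 with an SE of 0.36. The neutrophil markers summed to 520, 253 and 179 normalized counts, and the Kupffer cell markers to 11193, 24422 and 2016. At BDL day 3, where the Kupffer cell sum was highest, neither Siglec1 nor Siglece was higher than at day 0. The part of neutrophils and Kupffer cells in the Siglec values was not tested.

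Siglecg, an inhibitory Siglec of B cells, had means of 5.05, 0.745 and 0.340 normalized counts, and a day 0 library at 10.3 held 68.0% of that group's sum. Its log2 ratios to day 0 were -2.76 (SE 1.40) and -3.89 (SE 1.31), or -1.70 and -2.83 without that library. The 6 B cell markers summed to 376, 89.8 and 55.6, and 6 of 6 were lower in each BDL group than at day 0 (backgrounds 29.2% and 28.8%). Cd22, a B cell Siglec not in that list, had log2 ratios to day 0 of 0.14 and -0.865, so it was not lower at BDL day 3. Siglech, which marks plasmacytoid dendritic cells and couples to DAP12, had means of 6.65, 4.00 and 0.424. Its log2 ratio at BDL day 14 was -3.97 (SE 0.83), and that at BDL day 3 was -0.73 (SE 0.88). Without the highest day 0 library, at 12.8, the day 0 mean was 3.58, the BDL day 14 ratio was -3.08 and the BDL day 3 ratio turned to 0.16. The plasmacytoid markers summed to 237, 197 and 130, mainly from Bst2, and 3 of the 4 tested were lower in each BDL group (backgrounds 29.2% and 28.8%). The part of these cells in both genes was not tested.

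Siglecf, known from eosinophils, had means of 1.59, 6.84 and 3.60 normalized counts. Its log2 ratio of 2.10 at BDL day 3 had an SE of 1.34, so the difference was under 2 SE. Of the sialic acid receptors named otherwise, Cd22 had 42.8, 47.1 and 23.5, Cd33 had 16.1, 30.7 and 57.3, and Mag had 6.32, 10.2 and 2.90. Cd33 was thus highest at BDL day 14, where Siglec1, Siglece, Siglecg and Siglech were lowest.

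The Clec2 family serves as ligands of NK cell receptors. Clec2d encodes Clr-b, the ligand of the inhibitory receptor NKR-P1B, and had means of 169, 45.1 and 37.1 normalized counts. It was 3.75-fold lower at BDL day 3 (log2 ratio -1.91, SE 0.33) and 4.55-fold lower at BDL day 14 (-2.19, SE 0.31), and day 0 libraries could not overlap those of either BDL group. One day 0 library, at 253, held 49.9% of the group's sum, and the mean of the others was 127. At day 0 Clec2d was the most abundant of the 31 genes per kilobase of exon.

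Clec2i, which encodes Clr-g, went the other way, with means of 7.56, 14.6 and 14.2 normalized counts and log2 ratios to day 0 of 0.95 (SE 0.35) and 0.91 (SE 0.32). Clec2g was at the floor at day 0 (0.128) and BDL day 3 (0.254) and had a mean of 5.51 at BDL day 14, at least 10.8-fold higher than at day 0. A library at 11.8 held 53.5% of the BDL day 14 sum, and without it the bound was 6.67-fold. Clec2l was at 1.09 at day 0, where 1 library at 2.66 held 81.4% of the sum and the mean without it (0.305) was under the floor, and at the floor in both BDL groups. Clec2d, Clec2g and Clec2i each shared between 10.7% and 12.7% of their 31-base words with other genes, and Clec2i and Clec2g overlap genes on the opposite strand, so reads may have been split among them.

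The NK and T cell markers summed to 106, 23.5 and 4.97 normalized counts, and 6 of 6 were lower in each BDL group (backgrounds 29.2% and 28.8%). Their part in the Clec2 values was not tested. Klrb1b, the gene of the receptor for Clec2d, had 2.03, 1.77 and 6.08, and Klrb1f, that of the receptor for Clec2i, had 1.73 at day 0 and was at the floor afterwards. These 2 were chosen after their values were seen.

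Clec10a encodes MGL1, which binds galactose and N-acetylgalactosamine. Its means were 39.3, 27.5 and 64.6 normalized counts, and the log2 ratio from BDL day 3 to BDL day 14 was 1.23 (SE 0.37). Clec10a shared 14.9% of its 31-base words with other genes. The conventional dendritic markers summed to 205, 69.2 and 195, and 7 of the 8 tested were lower at BDL day 3 than at day 0 (background 29.2%). The part of dendritic cells in Clec10a, Clec9a or Cd209a was not tested.

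The Cd209 genes, homologues of human DC-SIGN, were near the floor. Cd209a had means of 1.27, 0.155 and 3.80 normalized counts, but a single library at 13.8 held 90.8% of the BDL day 14 sum, and without it that mean was 0.467 and the log2 ratio to day 0 turned from 1.58 to -1.44. Cd209b had 1.82, 1.28 and 0.407, a log2 ratio of -2.16 (SE 0.71) at BDL day 14. Cd209d and Cd209e stayed at or under 0.865 in all groups. The related Cd209f, whose name the rule does not cover, had 38.0, 37.5 and 0.368, and Cd209g had 7.25, 5.87 and 0.0872.

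Clec14a and Clec1a, receptors of endothelial cells, were low at BDL day 3 alone. Clec14a had means of 48.4, 6.37 and 54.4 normalized counts, log2 ratios of -2.93 (SE 0.78) and 0.17 (SE 0.73) to day 0. Clec1a had 9.10, 0.881 and 11.1, with -3.37 (SE 1.23) and 0.29 (SE 1.15). From BDL day 3 to BDL day 14 the means were 8.54-fold and 12.6-fold higher. The 7 sinusoidal endothelial markers summed to 935, 567 and 1179. At BDL day 3, 6 were lower than at day 0 (background 29.2%), and Cdh5 was the exception at 207, 299 and 81.5. Clec4g, an endothelial lectin left out by the rule, had 241, 69.5 and 365. The part of endothelial cells in these values was not tested.

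Clec3b encodes tetranectin, a secreted plasminogen-binding protein, and had means of 13.1, 0.255 and 1.89 normalized counts. The BDL day 3 value lay at the floor, which makes it at least 44.9-fold lower than at day 0, and the libraries of these groups could not overlap. Clec11a, a secreted growth factor of skeletal and blood progenitors, had 6.17, 0.666 and 0.766, with log2 ratios of -3.21 (SE 0.86) and -3.01 (SE 0.80). A day 0 library at 10.4 held 56.2% of its group's sum, and without it the ratios were -2.61 and -2.40. The 6 mesenchymal markers, such as Dcn and Col3a1, summed to 799, 16.0 and 73.9, and 6 of 6 were lower in each BDL group (backgrounds 29.2% and 28.8%). The part of mesenchymal cells in both genes was not tested. Clec16a, an endosomal protein with no known lectin function, had 5.61, 5.46 and 5.51.

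**Figure D3:**
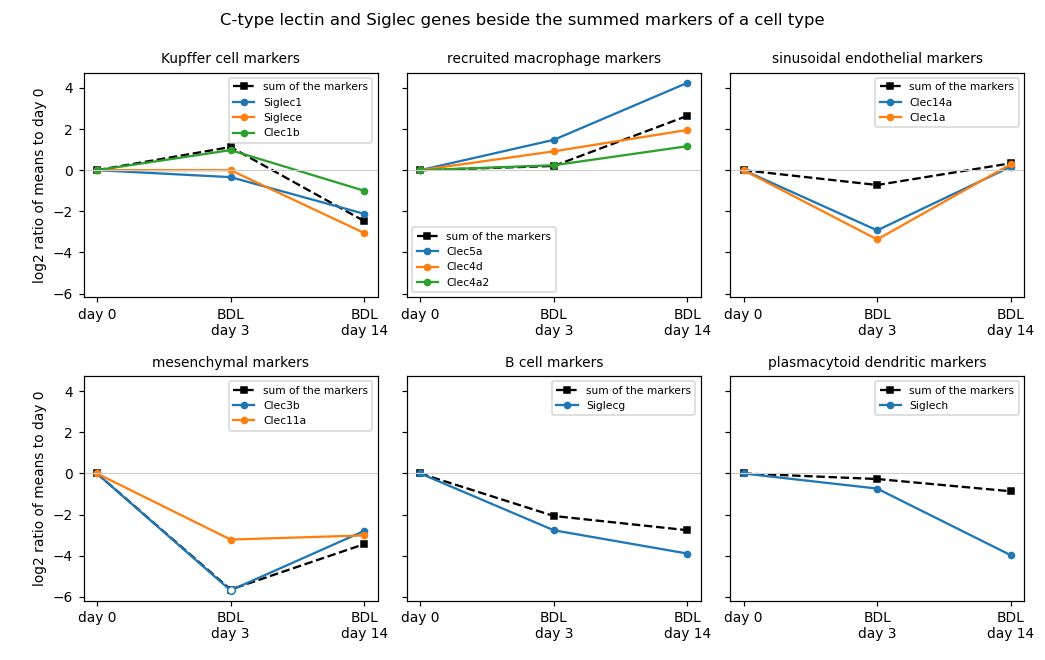
Log2 ratio to day 0 of the group means of single genes (coloured lines) and of the summed markers of a cell type (dashed black line) at day 0, BDL day 3 and BDL day 14; the open circle is a mean at the floor. Clec14a and Clec1a dip at BDL day 3 with the sinusoidal endothelial sum, from 935 to 567 normalized counts, and Siglec1, Siglece and Clec1b are lowest at BDL day 14, where the Kupffer cell sum was 2016. From day 0 to BDL day 3 the Kupffer cell sum went from 11193 to 24422, much of the rise from Cd5l and Marco, and Clec1b went from 224 to 440. Siglec1 (215 to 170) and Siglece (176 to 176) did not rise there.

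Added by role and per kilobase of exon, the adaptor-coupled receptors had a summed level of 116, 269 and 139 normalized counts per kilobase. Clec4n alone gave 88.0, 244 and 82.4 of these, and the other 4 receptors summed to 27.6, 25.3 and 56.8. The Siglecs had 129, 123 and 19.9, and the Clec2 family 143, 42.0 and 37.2. Clec12a and the Clec4a genes had 153, 163 and 181, the steadiest of the larger roles. The 5 most abundant genes per kilobase were Clec2d, Siglece, Clec4n, Clec4a3 and Clec4a1 at day 0, and Clec4n, Clec4a3, Clec4a1, Clec4a2 and Clec12a at BDL day 14. Siglece thus went from rank 2 to rank 11, and Clec4n from rank 3 to rank 1.

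**Figure D4:**
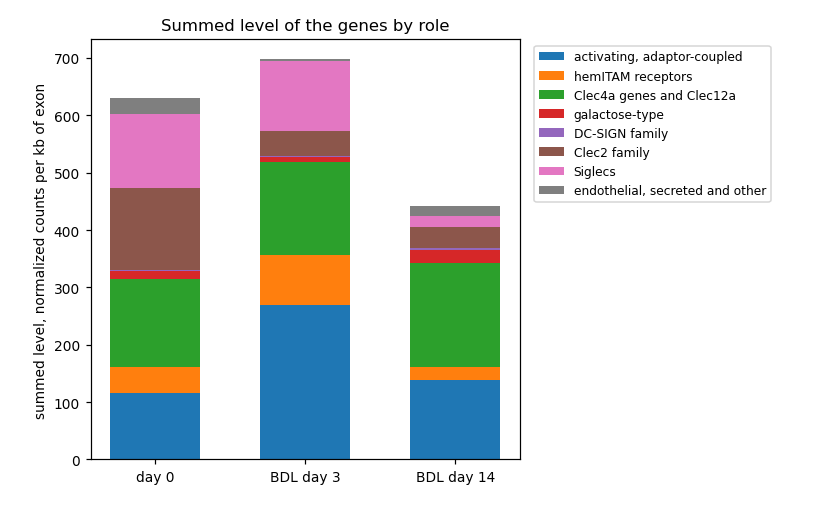
Summed level of the 31 genes in normalized counts per kilobase of exon, stacked by role, in the 3 groups. The Siglec layer shrinks from 129 at day 0 to 19.9 at BDL day 14, and the adaptor-coupled layer of 269 at BDL day 3 is mostly Clec4n, with 244.

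The signalling genes that these receptors use were measured in all groups. Of 18 listed, 6 were higher and 1 lower at BDL day 3 than at day 0 (backgrounds 19.2% and 29.2%), and 4 were higher and 2 lower at BDL day 14 (backgrounds 21.2% and 28.8%), the 4 being near the background. Tyrobp, the gene of DAP12, had means of 1010, 1770 and 1080 normalized counts, and Fcer1g, the FcR gamma chain, had 455, 691 and 442. Both were thus highest at BDL day 3, as Clec4n was. Of the pan-macrophage markers, Csf1r, Cd68, Adgre1 and Cd14 were also highest there, and Lyz2 and Ptprc were not. The part of macrophages in these values was not tested. The kinases Syk (139, 174 and 118) and Lyn (221, 283 and 200) were within 1.5-fold of day 0 in both BDL groups, as was the exchange factor Vav1 (106, 150 and 83.9). Ptpn6, the phosphatase SHP-1 that inhibitory receptors recruit, had 267, 291 and 165.

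Of 21 tested genes for other lectin-like receptors, 3 were higher and 14 lower at BDL day 3 than at day 0, and 5 were higher and 12 lower at BDL day 14, against the same backgrounds. The 3 higher at BDL day 3 were galectin-3 (Lgals3; 356, 1550 and 1430 normalized counts), Colec12 (28.4, 88.8 and 39.4) and Cd302 (122, 250 and 111). The mannose receptor Mrc1 had 385, 390 and 306, and Cd93, an endothelial and myeloid receptor, had 30.7, 19.8 and 266.

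Clec7a (Dectin-1), the beta-glucan receptor, is typed as a polymorphic pseudogene in the table and so is not among the 31 genes. It had means of 140, 395 and 524 normalized counts, log2 ratios to day 0 of 1.5 (SE 0.25) and 1.90 (SE 0.23). Clec4f, the Kupffer cell lectin left out by the rule, had 4610, 6890 and 185. These 2 lectins thus had BDL day 14 means on opposite sides of their day 0 means.

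The spread between libraries set what could be told apart. Genes with a mean between 1 and 10 had a median SD of 1.32 on the log2 scale among the lectins and Siglecs and 0.99 among all genes. From 10 to 100 the medians were 0.53 and 0.45, and from 100 to 1000 they were 0.54 and 0.38. Of the 31 genes, 13 stayed under a mean of 10 in every group.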

How the data were processed

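GFP(+) cells of 12 libraries were described by the labels (3 day 0, 3 BDL day 3 and 6 BDL day 14). The authors left 2 BDL day 14 libraries, not named, out of their means, and the paper gives too few reads as the reason. It also states that a sample from day 0 and from BDL day 3 was not sequenced because its RNA quality was poor. The authors worked in Partek: after trimming, reads were mapped to mm10 with STAR (2.6.1d in the submitters' processing notes, another release in the methods) and counted on GENCODE genes, with upper quartile normalization. The deposited signal values are the authors' least squares means of normalized counts per group, with the sum, highest library and geometric mean over libraries. There are 0 columns per library. The authors' comparison columns (p-value, FDR, ratio, log2 ratio, fold change and limits for 3 comparisons) were not used.

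Ratios of means were computed here for 12889 genes with a sum of at least 10, in Python 3.11.15 with numpy 2.4.6 and pandas 2.3.3, and called past 1.5-fold. The steps were tested on simulated data. Every simulated gene had the same spread between libraries, narrower than the median of genes with a mean between 1 and 10. The 2 SE rule was not simulated. Weighted by 3, 3 and 4 libraries, the means gave the authors' sum within 0.678% for all genes. The highest library was assigned to a group when the sums of the others could not hold it. The SD was approximate, since it takes the same spread in all groups. Exon lengths and overlaps came from GENCODE M21, in which all 31 genes had the coordinates of the table. Strand of the counting is not given in the sources used here.

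Genes with a mean of at least 10 in any group are named with their 3 means, and up to 6 genes per neighbouring list, the highest by mean. The members and lists were chosen with earlier results of these data known. The bound from the geometric mean and both 2 SE rules were chosen after seeing the data. Hepatocyte and cholangiocyte markers were also summed (2814, 842 and 352, and 517, 201 and 828 normalized counts, the latter 57.8, 26.0 and 35.9 without Spp1). Alternatives were folds of 2 and 4, pseudocounts of 1 and 0.1, median-ratio scaling, quantile normalization, no filter, a filter on means under 10, and leaving out the highest library.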

Additional observations from a re-analysis of the deposited data

How the results depend on the processing

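Of 322 alternative values for 74 log2 ratios, 303 kept their direction and their side of 1.5-fold, 8 kept their direction and changed side, and 11 changed sign. Of the 11, 8 were under 1.5-fold before and after (Clec16a, Clec4a1, Clec4a3, Clec11a and Clec12a, between -0.11 and 0.49), 7 of them under quantile normalization and 1 under median-ratio scaling, and 3 were past it before or after: Siglech at BDL day 3 (0.16) and Cd209a at BDL day 14 against day 0 (-1.44), both without the highest library, and Cd209b at BDL day 3 (0.71) under quantile normalization. That normalization moved the median log2 ratio of all genes from -0.02 to 0.12 at BDL day 3. The cause was not tested. The counts of higher and lower genes that moved most are listed here. Counts under the alternatives not listed stayed within 1.5-fold of the main count, as did a few of those listed. The share of all genes follows in brackets. At BDL day 3 against day 0, 3 of 15 were lower with a mean of at least 10 (15.0%), 3 of 27 were higher at 2-fold (7.45%), 1 was higher (0.877%) and 6 were lower (10.2%) at 4-fold, and 4 were higher (11.4%) and 6 lower (15.0%) past 2 SE, or 4 (11.3%) and 5 (13.4%) with neither mean at the floor. At BDL day 14 against day 0, 5 of 15 were higher (23.4%) and 4 lower (17.3%) with a mean of at least 10, 2 were higher (2.02%) and 9 lower (9.25%) at 4-fold, and 5 were higher past 2 SE (13.2%), or 4 (12.9%) with neither mean at the floor. From BDL day 3 to BDL day 14, 6 of 15 were higher (14.1%) and 4 lower (17.4%) with a mean of at least 10, 6 were higher (5.90%) and 2 lower (3.24%) at 4-fold, and 7 were higher (10.4%) and 6 lower (10.2%) past 2 SE with neither mean at the floor. Fewer genes are tested or called by construction in these. The bound from the highest library alone left no overlap for 1, 0 and 0 genes in the 3 comparisons. Of all genes, it left none for 0.147% (higher) and 1.87% (lower), 0.101% and 1.55%, and 0.132% and 0.45%. The bound from the geometric mean did so for 1, 3 and 2 genes. Its shares of all genes were 2.52% (higher) and 2.26% (lower), 2.74% and 3.12%, and 1.27% and 1.93%. Either bound did so for 2, 3 and 2 (5.94%, 6.70% and 3.44%). The 5 most abundant genes held 64.4%, 78.8% and 58.0% of the summed level when length was not divided out, against 67.2%, 74.8% and 59.6% per kilobase. Means under 10 had the widest spread. No paired analysis was possible because the labels number no replicates and the table holds group means, and leaving out each replicate in turn was not possible for the same reason.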
